A study of Homo sapiens with 3 samples.

Results

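The EGF receptor family and its ligands were followed across 3 poly(A) RNA libraries labelled NCI-N87, a human line established from a gastric carcinoma. The 10 members, chosen by gene symbol, were the receptor genes EGFR, ERBB3 and ERBB4 and the ligand genes HBEGF, AREG, EREG, TGFA, BTC, EPGN and NRG1, out of 31907 rows of the deposited matrix. All 3 cultures had been transfected with Lipofectamine 2000. The knockdown libraries came from cells given siRNA1 or siRNA2 against the forkhead transcription factor gene FOXP4, and the control cells got a scrambled siRNA. The siRNAs are different reagents, so the knockdown group holds 1 library of each, and the control has no replicate. The time after transfection was not given in the sources used here, and nothing says whether the cultures were grown separately, so the spread behind every p-value may be technical.

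The receptors of this family are tyrosine kinases that pair with each other when a ligand binds. EGFR binds the EGF-like ligands, ERBB3 and ERBB4 bind neuregulins, and ERBB3 has little kinase activity of its own and signals through its partner. The ligands are made as membrane proteins and are released by metalloproteases, and in stomach epithelium they drive growth and repair. HB-EGF and TGF-alpha can act on the cell that makes them.

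Only 5 of the 10 members were expressed above trace level, and HBEGF and EGFR stood furthest above the scrambled library. HBEGF, the heparin-binding ligand, measured 245 TPM with siRNA1 and 736 TPM with siRNA2, against 26.0 TPM with the scrambled siRNA. EGFR measured 79.8 TPM with siRNA1 and 351 TPM with siRNA2, against 35.0 TPM with the scrambled siRNA. TPM is a read share corrected for length, and each value is 1 library. The length that fits these values is the whole annotated exon length of a gene. It is 12521 bases for EGFR, 9039 for ERBB3, 10321 for ERBB2 and 3018 for HBEGF. The transcripts expressed can be shorter than that, so levels and ratios between different genes are rough. The measurement is of bulk RNA, where fewer cells of a type and less RNA per cell cannot be told apart.

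The promoters of HBEGF and EGFR are shown because these genes stood highest, and that of BTC because it alone among the 8 members searched held the forkhead core. The windows run from 250 bases before to 50 bases after a RefSeq transcription start (GRCh38.p14), 5′ to 3′ on the gene's strand. Capitals mark, on either strand, the forkhead core TGTTTAC, the AP-1 site TGANTCA and the GC box GGGCGG. EGFR has a window at each of 2 RefSeq starts, an upstream one at chr7:55018767-55019066 and a downstream one at chr7:55109589-55109888, both on the plus strand. The HBEGF window is chr5:140346554-140346853 and that of BTC is chr4:74794474-74794773, both on the minus strand.
HBEGF: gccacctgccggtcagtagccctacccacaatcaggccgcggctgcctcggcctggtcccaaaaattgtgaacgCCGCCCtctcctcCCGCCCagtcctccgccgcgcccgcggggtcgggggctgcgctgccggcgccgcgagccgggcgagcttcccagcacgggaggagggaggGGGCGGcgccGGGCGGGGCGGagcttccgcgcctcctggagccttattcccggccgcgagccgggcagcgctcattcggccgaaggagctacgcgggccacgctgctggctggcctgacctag
EGFR, upstream start: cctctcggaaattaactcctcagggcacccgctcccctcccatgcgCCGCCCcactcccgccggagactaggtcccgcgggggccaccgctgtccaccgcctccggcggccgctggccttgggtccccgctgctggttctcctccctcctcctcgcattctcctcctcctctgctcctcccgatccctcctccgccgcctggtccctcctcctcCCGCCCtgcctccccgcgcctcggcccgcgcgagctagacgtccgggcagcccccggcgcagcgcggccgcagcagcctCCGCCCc
EGFR, downstream start: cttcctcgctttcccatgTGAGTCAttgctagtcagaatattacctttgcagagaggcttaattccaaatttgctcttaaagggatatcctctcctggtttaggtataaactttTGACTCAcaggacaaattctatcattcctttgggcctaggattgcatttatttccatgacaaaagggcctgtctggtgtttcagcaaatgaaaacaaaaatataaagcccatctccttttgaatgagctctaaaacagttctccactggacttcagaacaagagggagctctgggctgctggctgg
BTC: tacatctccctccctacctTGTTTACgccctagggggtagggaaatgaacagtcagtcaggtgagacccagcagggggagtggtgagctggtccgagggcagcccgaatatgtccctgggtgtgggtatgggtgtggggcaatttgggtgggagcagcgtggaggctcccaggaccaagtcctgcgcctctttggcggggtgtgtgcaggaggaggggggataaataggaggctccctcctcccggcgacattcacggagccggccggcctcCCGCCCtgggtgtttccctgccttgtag

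RefSeq windows were searched for 8 members, 10 windows in all. Member windows on chromosome 8, where NRG1 lies, were left out, and ERBB3 had no window in the set used. The HBEGF window is 75.0% G and C and holds 38 CpG dinucleotides and 5 GC boxes, some overlapping. The upstream EGFR window is alike in composition, at 75.3% G and C, with 33 CpG dinucleotides and 3 GC boxes. Over all 34796 distinct windows the medians were 58.7% G and C and 14 CpG dinucleotides, and 44.9% held a GC box. The downstream EGFR window lies inside the gene, with 166 of its 300 bases in a GENCODE 29 exon of EGFR. It is 42.0% G and C, with 1 CpG dinucleotide, and holds AP-1 sites starting 232 and 136 bases before the start, where 7.73% of all windows hold at least 1. The forkhead core lies 231 bases before the RefSeq start of BTC and in none of the other 9 windows, and 3.42% of all windows hold it. Of the 300 bases of the BTC window 213 lie in a GENCODE 29 exon of BTC, so that distance holds for the RefSeq start only. These are matches of letters only.

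Estimated depth was 18257941 reads with siRNA1, 18847834 with siRNA2 and 18068480 with the scrambled siRNA. FOXP4 itself measured 51.6 TPM with siRNA1 and 36.7 TPM with siRNA2, against 93.9 TPM with the scrambled siRNA. The siRNA1 folds sank with rising GC content of the transcript, and after subtraction of that trend the siRNA1 log2 fold of FOXP4 was -0.20 in place of -0.85, so that library gives a weak check of its label. Of 8 epithelial markers 6 lay above 50 TPM in every library, with EPCAM at 1150 TPM, 813 TPM and, in the scrambled library, 1136 TPM. KRT8, KRT18, KRT19, CLDN4 and TFF1 were above the scrambled library with siRNA2, where EPCAM was below it, and the 8 summed to 3549 TPM with siRNA1 and 5741 TPM with siRNA2, against 4740.2 TPM with the scrambled siRNA. The E-cadherin gene CDH1 was low at 5.86 TPM, 11.6 TPM and, in the scrambled library, 4.16 TPM, and TFF3 was listed at 0 with both siRNAs and at 0.55 TPM with the scrambled siRNA. Of the listed immune and endothelial markers none passed a mean of 1 TPM. Of 5 fibroblast markers COL1A2 and DCN were listed at 0 and PDGFRB stayed under 1 TPM. PDGFRA was present at 141 TPM, 65.6 TPM and, in the scrambled library, 84.8 TPM, and COL1A1, which went the other way, at 6.42 TPM, 22.3 TPM and, in the scrambled library, 13.1 TPM. The summed fibroblast markers were 148 TPM with siRNA1 and 88.1 TPM with siRNA2, against 98.7 TPM with the scrambled siRNA, and their part in the results was not tested. Mitochondrially encoded mRNAs took 8.05% of TPM with siRNA1 and 1.41% with siRNA2, against 5.15% with the scrambled siRNA.

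Of the receptors, EGFR differed most between libraries. The gene lies on chromosome 7 (GRCh38, 55019021 to 55211628, plus strand). Its TPM was 2.28 times the scrambled level with siRNA1 and 10.04 times with siRNA2, and the siRNA2 library was 4.40 times the siRNA1 library. Both knockdown libraries lay above the scrambled one, and the level with siRNA1 was nearer to the scrambled library than to siRNA2. As log2(TPM + 1), EGFR was higher by 1.17 with siRNA1 and by 3.29 with siRNA2, which averages 2.23 ± 1.501 (SD, n = 2). Among the 14429 genes tested, those averaging 1 TPM or more, EGFR ranked 528 from the top by the siRNA1 fold and 54 by the siRNA2 fold.

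The non-coding antisense gene EGFR-AS1 shares 186 exon bases with EGFR, or 1.49% of the EGFR exon length. It measured 0.47 TPM with siRNA1 and 1.31 TPM with siRNA2 and was listed at 0 with the scrambled siRNA, which came to about 6.0, 17.0 and 0 reads. The counting is not stated to use strand, so reads of the pair within those bases cannot be told apart.

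ERBB3, the neuregulin receptor that signals through a partner, had the highest TPM of the 3 receptor genes with siRNA1 and with the scrambled siRNA. It measured 131 TPM with siRNA1 and 120 TPM with siRNA2, against 72.1 TPM with the scrambled siRNA. The knockdown libraries lay close together, and both were above the scrambled one, with log2 folds of 0.85 and 0.72 that averaged 0.79 ± 0.09 (SD, n = 2), short of 2-fold. The gene lies on chromosome 12 (56076799 to 56103505, plus strand).

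ERBB4, the other neuregulin receptor, was at trace level. It measured 0.067 TPM with siRNA1 and 0.050 TPM with siRNA2, about 4.0 and 3.0 reads, and was listed at 0 with the scrambled siRNA, where 3 reads would have been 0.049 TPM. A difference was not detectable at this depth.

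The balance of receptor transcripts was different in the siRNA2 library. EGFR made up 37.9% of the summed TPM of the 3 receptors with siRNA1 and 74.6% with siRNA2, against 32.7% with the scrambled siRNA. EGFR was thus below ERBB3 with siRNA1 and with the scrambled siRNA, at 0.61 and 0.49 of its level, and 2.93 times ERBB3 with siRNA2.

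ERBB2, the ligandless partner receptor, is no member here but bears on the label, since NCI-N87 is known for ERBB2 amplification. It measured 58.9 TPM with siRNA1 and 63.9 TPM with siRNA2, against 89.8 TPM with the scrambled siRNA, which placed it at ranks 3354, 2827 and 2136 of the 31907 rows by TPM. EGFR was 1.36 and 5.49 times ERBB2 with the siRNAs, against 0.39 times with the scrambled siRNA. The identity of the line was not tested.

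**Figure D1:**
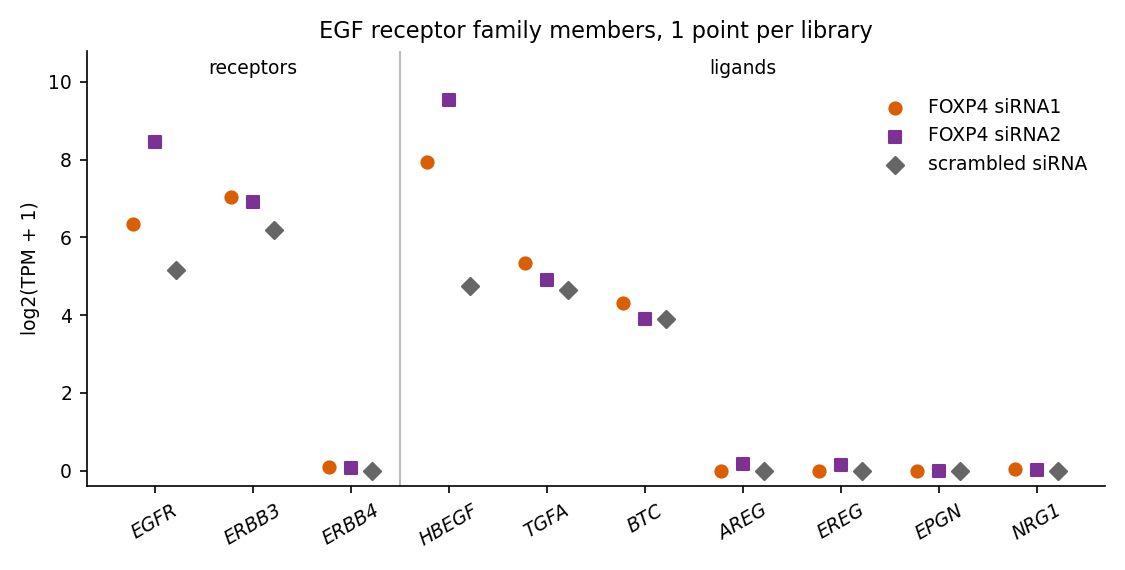
Level of each member as log2(TPM + 1) on the vertical axis, with 1 point per library (circle, FOXP4 siRNA1; square, FOXP4 siRNA2; diamond, scrambled siRNA), receptors left and ligands right of the grey line. EGFR and HBEGF spread most between libraries, ERBB3, TGFA and BTC spread less, and the other 5 members lie at or near 0.

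Of the ligands, HBEGF was the most abundant with either siRNA and the furthest from the scrambled level. In the scrambled library it was close to TGFA, at 26.0 TPM against 24.0 TPM. The gene lies on chromosome 5 (140332843 to 140346631, minus strand), and none of its exon bases are shared with another GENCODE 29 gene. Its TPM was 9.43 times the scrambled level with siRNA1 and 28.4 times with siRNA2, and 3.01 times higher with siRNA2 than with siRNA1. As log2(TPM + 1), HBEGF was higher by 3.19 with siRNA1 and by 4.77 with siRNA2, which averages 3.98 ± 1.12 (SD, n = 2). About 3367 and 10300 reads lay behind the knockdown values and about 369 behind the scrambled value, so read counting adds little to the spread. HBEGF ranked 23 and 11 of 14429 genes by the siRNA1 and siRNA2 folds, and 8 by the smaller of the folds.

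TGFA, the gene of transforming growth factor alpha, measured 39.3 TPM with siRNA1 and 28.9 TPM with siRNA2, against 24.0 TPM with the scrambled siRNA. Its log2 folds of 0.69 and 0.26 averaged 0.48 ± 0.30 (SD, n = 2). BTC encodes betacellulin, a ligand of both EGFR and ERBB4. It measured 19.0 TPM with siRNA1 and 13.9 TPM with siRNA2, against 13.8 TPM with the scrambled siRNA. The siRNA2 library was level with the scrambled one for BTC, with a log2 fold of 0.01, and the siRNA1 fold of 0.44 was 0.03 once the GC trend was removed. Leaving out mitochondrially encoded genes and rescaling put the siRNA2 value of BTC below the scrambled one, so that 4 in place of 5 of the 5 expressed members were above it with both siRNAs.

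AREG, EREG and EPGN encode amphiregulin, epiregulin and epigen, and they lie beside BTC on chromosome 4 in a stretch of 486 kb (74308473 to 74794686). All 3 were at or near 0 in every library while BTC was expressed. AREG was listed at 0 with siRNA1 and with the scrambled siRNA and at 0.13 TPM with siRNA2, which was 1 read. EREG was listed at 0 with siRNA1 and with the scrambled siRNA and at 0.11 TPM with siRNA2, which was 3 reads. EPGN was listed at 0 in all 3 libraries, where 3 reads would have been 0.36 TPM with either siRNA and 0.35 TPM with the scrambled siRNA.

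NRG1, neuregulin 1, a ligand of ERBB3 and ERBB4, measured 0.039 TPM with siRNA1 and 0.019 TPM with siRNA2, about 2.0 and 1.0 reads, and was listed at 0 with the scrambled siRNA. A listed 0 can come from the counting as well as from the cells. PIK3R2, a widely expressed phosphatidylinositol 3-kinase subunit gene, was listed at 0 in every library, and 87.2% of its exon bases are shared with another GENCODE 29 gene. AREG, EREG, EPGN and NRG1 share no exon bases with another gene there. Of the 31907 rows 22179 were matched to GENCODE 29 by symbol, and sharing in the annotation used for the counting was not checked. Among EGF-like ligand genes outside the 10, EGF and NRG4 were at or under 0.39 TPM in every library, and NRG2 was listed at 0.

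The ligand transcripts were mostly HBEGF with either siRNA. Summed TPM of the 7 ligands was 303 with siRNA1 and 780 with siRNA2, against 63.7 with the scrambled siRNA. HBEGF made up 80.8% of that sum with siRNA1 and 94.5% with siRNA2, against 40.7% with the scrambled siRNA, where TGFA followed closely at 37.6% and BTC had 21.7%. TGFA made up 13.0% and 3.71% with the siRNAs, although its own level was not below the scrambled one.

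**Figure D2:**
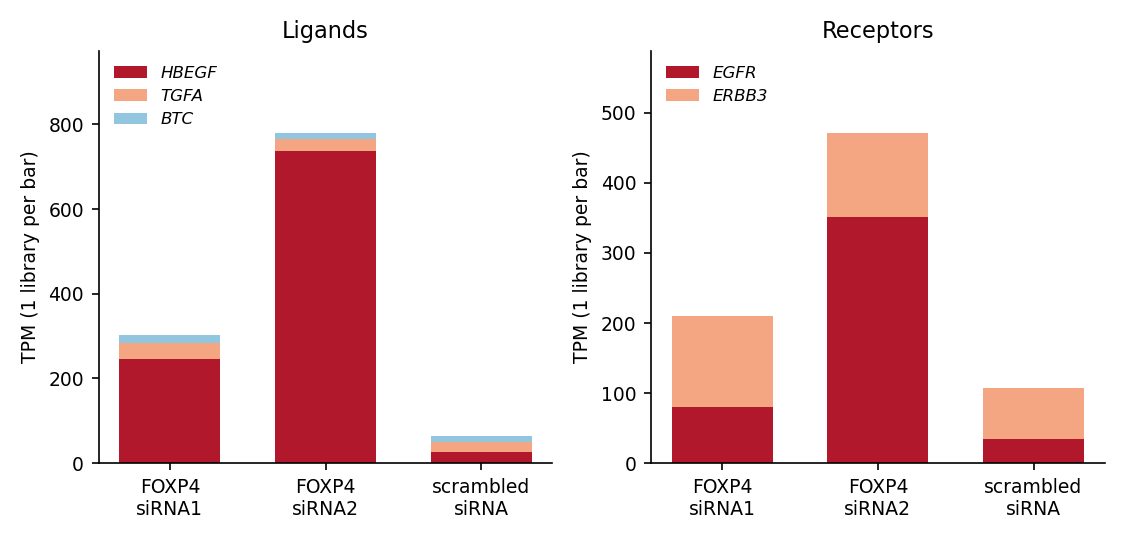
Summed TPM of the expressed ligands (left) and receptors (right), 1 library per bar, with FOXP4 siRNA1, FOXP4 siRNA2 and scrambled siRNA from left to right. The ligand bars reach 303, 780 and 63.7 TPM and are mostly HBEGF with either siRNA, and EGFR exceeds ERBB3 only with siRNA2.

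The test across all genes asked which differences exceeded the spread between the knockdown libraries. Limma on log2(TPM + 1), with Benjamini-Hochberg adjustment over 14429 genes and 1 residual degree of freedom, called 0 genes (0.0%), where 428 had an unadjusted p under 0.05, and no other tool was run. All 5 expressed members had an adjusted p of 0.9999 in limma, and 1 of them, HBEGF, had an unadjusted p under 0.05. Among the 9129 genes averaging 10 TPM or more, limma called 93 (1.02%), 84 of them higher (0.92%), and HBEGF and EGFR rose with adjustment over these 9129 genes (limma adjusted p = 1.7e-09 and 0.00894). The estimated prior degrees of freedom were infinite there, so all genes shared a variance trend. The wide gaps between the siRNAs for HBEGF and EGFR therefore did not enter their p-values. ERBB3, TGFA and BTC did not pass in that fit (limma adjusted p = 0.9996).

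By size alone, 2 of the 5 expressed members, HBEGF and EGFR, were at least 2-fold above the scrambled library with both siRNAs, against 363 of all 14429 genes (2.52%). None was at least 2-fold below it, against 2.38% of all genes. All 5 were above it with both siRNAs at any size, against 24.5% of all genes. Without mitochondrially encoded genes 4 were, as BTC was not, and the share over all genes was not computed for that setting. Their median log2 folds were 0.85 with siRNA1 and 0.72 with siRNA2, beside medians of 0.03 and -0.24 over all genes tested. The 24.5% depends on that scaling, with its siRNA2 median below 0, and it was not computed after rescaling. The other 5 members, under 1 TPM, enter none of these counts, and the folds with siRNA1 and siRNA2 share the same scrambled library.

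**Figure D3:**
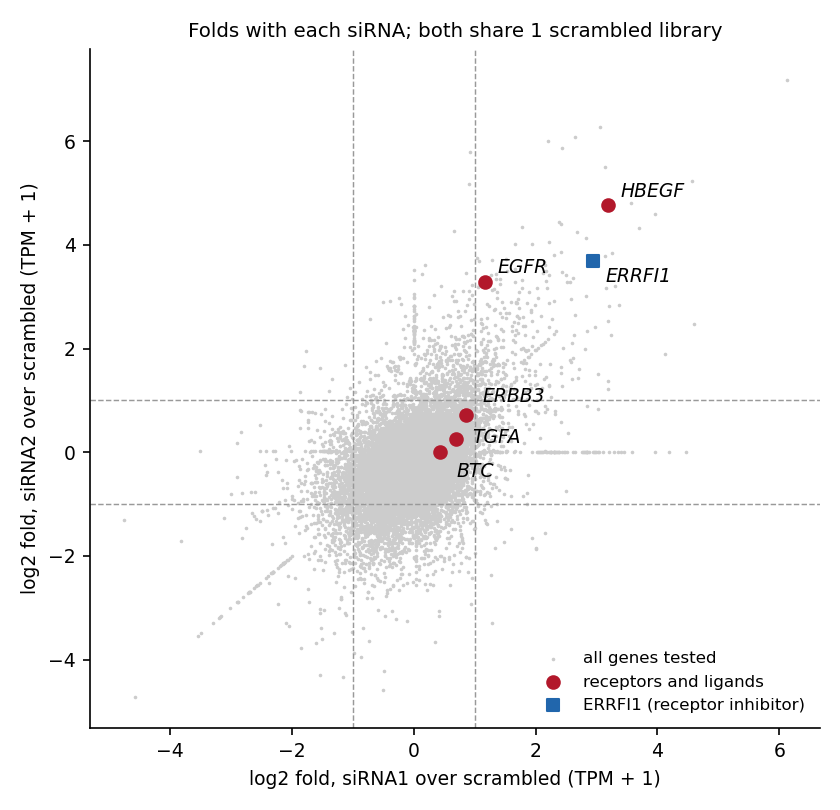
Log2 fold of TPM + 1 over the scrambled library with siRNA1 (horizontal axis) and siRNA2 (vertical axis) for all 14429 genes tested (grey), the 5 expressed receptors and ligands (red) and ERRFI1 (blue), with dashed lines at 2-fold. HBEGF, EGFR and ERRFI1 lie past 2-fold on both axes, and ERBB3, TGFA and BTC lie within it. Both axes share the scrambled library.

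Genes closest to HBEGF and EGFR were sought among the 9129 genes averaging 10 TPM or more over the 3 libraries. Distance was taken in the plane of the siRNA1 and siRNA2 log2 folds. Nearest to HBEGF lay EGR2 and FOSB, which encode immediate early transcription factors, then TRIB1, MMP3 and ARL14, at distances of 0.38 to 0.74. In the scrambled library EGR2, FOSB, MMP3 and ARL14 measured only 0.46, 2.98, 3.94 and 0.82 TPM. They reached the mean of 10 TPM through the siRNA libraries, and the 1 TPM added before the log shrinks their folds. Their nearness to HBEGF thus depends on that added value. TRIB1, a pseudokinase gene, was close in level too, at 242 TPM with siRNA1 and 725 TPM with siRNA2, against 37.1 TPM with the scrambled siRNA. Nearest to EGFR lay EPHA2, another receptor tyrosine kinase gene, at a distance of 0.11, with 676 TPM with siRNA1 and 3028 TPM with siRNA2, against 321 TPM with the scrambled siRNA. SOX21, CXCL2 and KLF4 were also near, at distances up to 0.21, with 5.74, 3.68 and 54.7 TPM in the scrambled library. SOX21 and CXCL2 too reached the mean of 10 TPM through the siRNA libraries, and the added 1 TPM shrinks their folds.

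Among the pathway lists, the receptor brakes and turnover genes held the gene furthest from the scrambled library, ERRFI1. This gene encodes MIG6, which binds EGFR and inhibits its kinase. It measured 1938 TPM with siRNA1 and 3268 TPM with siRNA2, against 251 TPM with the scrambled siRNA, and its log2 folds were 2.94 and 3.70. It was the 1 of 18 listed genes to rise among genes averaging 10 TPM or more (limma adjusted p = 0.000494), where 0.92% of all 9129 genes rose. Its own gap between the siRNAs did not enter that p. None of the 19 passed over all 14429 genes (limma adjusted p = 0.9999).

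PTPN12, a tyrosine phosphatase gene, was also past 2-fold with both siRNAs, at 276 TPM and 337 TPM, against 135 TPM with the scrambled siRNA, but its siRNA1 log2 fold was 0.64, short of 2-fold, with the GC trend removed. CBL, a ubiquitin ligase that marks active EGFR for degradation, measured 41.3 TPM with siRNA1 and 69.0 TPM with siRNA2, against 21.4 TPM with the scrambled siRNA. Its relative CBLB, the deubiquitinase gene USP8 and the endocytic adaptor gene EPS15 had smaller mean log2 folds of 0.58, 0.78 and 0.71. The siRNA1 folds of CBL, CBLB, USP8 and EPS15 were 0.76, 0.43, 0.67 and 0.22 with the GC trend removed. Their siRNA2 folds were 1.86, 0.53, 0.63 and 0.85 with it removed. Of the 19 genes 11 were above the scrambled library with both siRNAs, against 24.5% of all genes, 1 was below with both and 7 were split. The 24.5% was not computed after rescaling, and the siRNA2 median over all genes was -0.24 without it. Shares of all genes below or split were not computed. The list's median log2 folds were 0.36 with siRNA1 and 0.27 with siRNA2, and 2 genes met the 2-fold rule, against 2.52% of all genes. With the GC trend removed 1 gene met it, against 282 of 12302 genes.

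Adaptors and relay genes carry the signal from the receptors to RAS, ERK and phosphatidylinositol 3-kinase. GAB1, a docking protein of EGFR signalling, measured 22.8 TPM with siRNA1 and 20.7 TPM with siRNA2, against 9.13 TPM with the scrambled siRNA. PIK3CB, a catalytic subunit of phosphatidylinositol 3-kinase, measured 90.2 TPM with siRNA1 and 162 TPM with siRNA2, against 40.5 TPM with the scrambled siRNA. These were the 2 of 24 tested genes past 2-fold above the scrambled library with both siRNAs, against 2.52% of all genes. With the GC trend removed 0 were, against 282 of 12302 genes, as the siRNA1 folds of GAB1 and PIK3CB were then 0.76 and 0.70. PIK3CA, BRAF and SOS2 had mean log2 folds of 0.91, 0.80 and 0.75, and MAP2K2, which encodes the ERK kinase MEK2, had -0.82. The siRNA1 folds of PIK3CA, BRAF, SOS2 and MAP2K2 were 0.63, 0.12, 0.27 and -0.41 with the GC trend removed. Their siRNA2 folds were 0.70, 1.21, 0.97 and -0.38 with it removed. In all, 12 were above the scrambled library with both siRNAs, against 24.5% of all genes, while 6 were below it and 6 were split, for which no share over all genes was computed. The medians were 0.18 and 0.15, and no gene of the list passed limma in either fit.

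Ligand shedding genes were mixed in direction. ADAM17, the main protease that releases HB-EGF and TGF-alpha, measured 47.5 TPM with siRNA1 and 79.4 TPM with siRNA2, against 33.9 TPM with the scrambled siRNA. ADAM9 measured 419 TPM and 428 TPM with the siRNAs, against 284 TPM, while ADAM15 was lower at 116 TPM and 124 TPM, against 208 TPM, and ADAM8 at 1.61 TPM and 1.44 TPM, against 2.93 TPM with the scrambled siRNA. With the GC trend removed the siRNA1 log2 folds were 0.01 for ADAM17, 0.13 for ADAM9 and -0.13 for ADAM15, and ADAM8 turned to 0.11. Of 8 tested genes 2 were above the scrambled library with both siRNAs, against 24.5% of all genes, 2 below and 4 split. With the GC trend removed 5 were above and 1 below. Shares over all genes were not computed for that setting, nor for genes below or split. None was past 2-fold with both siRNAs, and none passed limma in either fit.

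**Figure D4:**
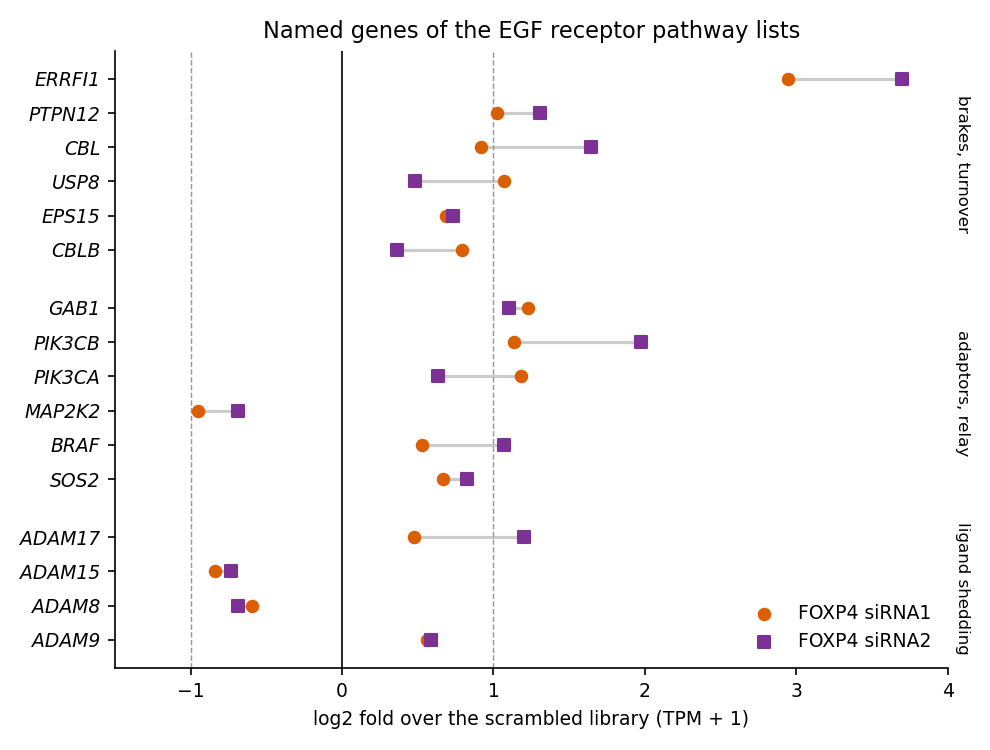
Log2 fold over the scrambled library (TPM + 1) of the named genes of each pathway list, with siRNA1 as circles, siRNA2 as squares and dashed lines at 2-fold. ERRFI1 stands apart at 2.94 and 3.70, PTPN12, GAB1 and PIK3CB lie past 2-fold with both siRNAs, and MAP2K2, ADAM15 and ADAM8 lie below 0.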

How the data were processed

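The authors deposited TPM values per gene symbol for 3 libraries, and GRCh38 (hg38) is named in the submitters' processing notes. For the quantification tool and its annotation, the sources used here give no name. The matrix held 31907 rows, of which 7683 were 0 in every library.

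Folds were taken on log2(TPM + 1), which understates changes of low genes. Genes averaging under 1 TPM were left out. Limma 3.58.1 (R 4.3.3) with trended empirical Bayes variances and Benjamini-Hochberg adjustment at 0.05, set both siRNA libraries against the scrambled one, which was assumed to vary like them. Reads were estimated from TPM times GENCODE 29 exon length: 93.0% to 93.3% of low values lay within 0.1 of whole reads. The GC trend was a lowess curve of each fold on transcript GC content, which 85.3% of tested genes had. The limma fit, the read estimate and the GC step were each run on simulated data with known answers. The limma simulation used a smaller spread than that between the siRNAs, so it does not show how the fit does on these data.

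Members and lists were chosen with earlier results of these data known. Pathway genes were named when at least 2-fold from the scrambled library with both siRNAs, plus the next 4 by mean fold, and for HBEGF and EGFR the 5 nearest genes, of which 1 is not reported here. Alternatives changed the pseudocount, filter, scaling, GC content and libraries.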

Additional observations from a re-analysis of the deposited data

How the results depend on the processing

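The mean folds of HBEGF, EGFR, ERBB3, TGFA and BTC kept their direction in all 50 alternative values, 10 each, although the siRNA2 fold of BTC alone turned below 0 without mitochondrially encoded genes. The mean log2 fold ranged from 3.19 to 4.77 for HBEGF, 1.17 to 3.29 for EGFR, 0.72 to 0.99 for ERBB3, 0.26 to 0.69 for TGFA and 0.01 to 0.44 for BTC, mostly from leaving out a siRNA library. Limma called 93 of the genes averaging 10 TPM or more, 92 protein-coding genes and 9 genes without mitochondrially encoded genes, and HBEGF was among them each time (limma adjusted p = 0.0365 in the last). EGFR passed in the first and second of these only, where its own gap between siRNAs did not enter the p, over adjusted p-values of 0.0088 to 0.9999 across its alternatives. The gap of HBEGF between siRNAs did not enter its p in the first and second either. Genes at least 2-fold higher and lower numbered 158 and 121 of 14429 with a pseudocount of 5. At 10 TPM they numbered 204 and 143 of 9129, and among protein-coding genes 211 and 177 of 10847. They numbered 507 and 521 of 14429 with a pseudocount of 0.1, and 376 and 583 of 24224 with no filter. With the GC trend removed they were 282 and 117 of 12302, against 363 and 343 of 14429 as reported. The totals differ, so the counts are not directly comparable. With a single siRNA library they were 760 to 993 higher and 866 to 1902 lower, with no test possible. The median siRNA2 fold over all genes was -0.24, and 0.01 after median-of-ratios rescaling. The causes were not tested. No paired analysis was possible because the control has 1 library. A lone control and 1 residual degree of freedom limit every test, and trace members cannot be compared at this depth.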
